A study of Homo sapiens with 6 samples.

Results

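The regions described here are the m1G-antibody peaks that lay at the 5′ ends of genes in PANC-1 cells. m1G is guanosine with a methyl group on N1, and PANC-1 is an established cell line grown from a human pancreatic ductal adenocarcinoma. Peaks were taken from the list made with MeTDiff, a caller that compares an antibody precipitate with its input along joined exons. A peak was counted when its midpoint, the middle base of its blocks, lay inside exactly 1 RefSeq gene span, under 500 bp from the 5′ end by the peak's own strand and 500 bp or more from the 3′ end. This held for 2569 of the 18431 deposited peaks, which is 13.9% (95% Wilson interval 13.4 to 14.4), on 2390 genes. The gene's strand was listed for 2082 of the 2569 peaks, and the other 487 were kept on the strand given in the peak list alone. For orientation, 952 peaks met the mirror rule at the 3′ end, and 11760 were interior, with 500 bp or more to both ends.

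Polyadenylated RNA was fragmented and precipitated with an anti-m1G antibody, from cells that had received either a control siRNA or an siRNA that depletes TRMT5, for 4 days. Each condition had 1 input library and 2 precipitates, all labelled experiment 1, and nothing in the labels says whether the precipitates came from separate cultures. The peak lists mark neither condition nor replicate, and which of the 6 libraries entered each is not stated. Knockdown and control could therefore not be set against each other, and library depth and TRMT5 levels per library are unknown. The protocol also names a GFP antibody as the alternative to anti-m1G, and no sample is labelled with it. Each fold below is the ratio of precipitate over input in the authors' deposited list, the meaning being read from column order and values, and it carries no replicate error. Each FDR, or false discovery rate, is also from that list. Wilson intervals cover counting error only.

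N1-methylguanosine is best known from tRNA, where TRMT5 places it beside the anticodon and so helps the ribosome hold its reading frame. The 5′ end of a polyadenylated transcript carries another methylated guanosine, the 7-methylguanosine cap, followed by nucleotides that are often methylated on the ribose. Transcripts from GC-rich promoters begin with GC-rich leader sequence, which folds readily and is where scanning ribosomes load. The lists give regions, and no nucleotide or modification is identified within a peak.

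The bases around the listed start are shown for 6 genes. These are 6 of the largest-fold peaks whose blocks cover the first 20 transcribed bases, and they show the sequence at the listed start under such peaks. Each line reads 5′ to 3′ on the gene's strand in RefSeq GRCh38.p14, with 40 bases before the start in lower case and the first 20 transcribed bases in capitals.
EEIG1, chr9:127980970-127981029, minus strand: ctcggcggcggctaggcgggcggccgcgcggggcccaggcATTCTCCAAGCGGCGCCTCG
CYB5A, chr18:74291944-74292003, minus strand: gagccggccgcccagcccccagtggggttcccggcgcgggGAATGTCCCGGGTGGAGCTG
GNA12, chr7:2844289-2844348, minus strand: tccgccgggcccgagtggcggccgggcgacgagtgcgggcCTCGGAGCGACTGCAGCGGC
RNASET2, chr6:166956531-166956590, minus strand: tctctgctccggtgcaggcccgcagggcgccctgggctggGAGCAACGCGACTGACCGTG
DENND5A, chr11:9265307-9265366, minus strand: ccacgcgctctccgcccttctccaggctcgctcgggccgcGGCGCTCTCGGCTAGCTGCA
CDC42BPB, chr14:103057530-103057589, minus strand: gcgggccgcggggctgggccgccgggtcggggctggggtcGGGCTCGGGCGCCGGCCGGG

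EEIG1, an early oestrogen-induced gene, had a fold of 54.0 in the authors' deposited list. CYB5A, which encodes the electron carrier cytochrome b5, had a fold of 43.6, and GNA12, a G-protein alpha subunit, had 40.5. RNASET2, a secreted ribonuclease, had a fold of 35.8, DENND5A, a regulator of Rab GTPases, had 34.8, and CDC42BPB, a kinase downstream of CDC42, had 33.8. The start base differed among them. G was the most frequent capital letter for CDC42BPB, with 12 of 20, while EEIG1 had only 5.

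Peaks gathered a short way into the gene and not on its first base. The midpoint lay at a median of 166 bp from the 5′ end (quartiles 106 and 275). By 50 bp steps, the counts were 90, 431, 645, 371 and 279 over the first 250 bp, then 201, 149, 167, 127 and 109 up to 500 bp. The bin from 100 to 150 bp was therefore the fullest, with 645 peaks, and counts fell to 109 just inside the limit and 88 in the next bin outside it. The mirror profile at the 3′ end had no such crest: it held 5, 33 and 85 peaks in its first 3 bins and between 104 and 131 in each of the other 7. Only 325 peaks (12.7%) covered the 5′ end base itself. A peak's blocks had a median length of 150 bp (quartiles 101 and 201), so a midpoint cannot lie much nearer to the end unless the peak is short or crosses it.

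**Figure D1:**
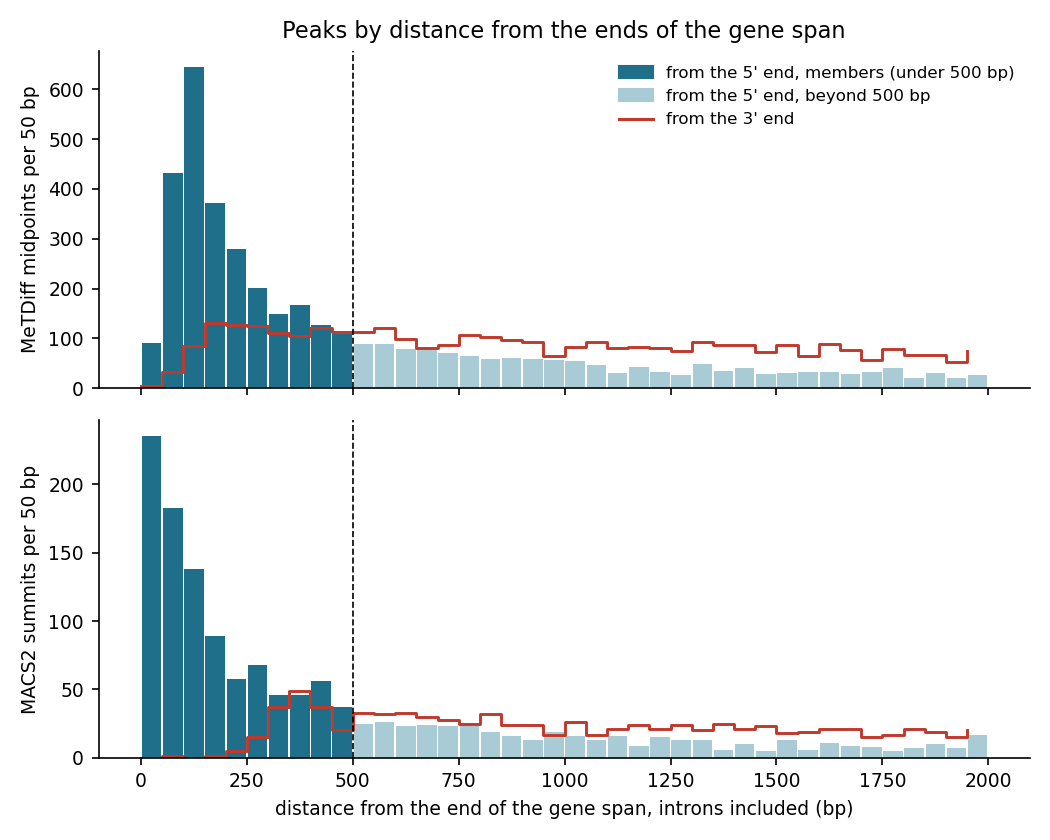
Number of MeTDiff midpoints (upper panel) and MACS2 summits (lower panel) per 50 bp against the distance in bp from the 5′ end (bars, dark under 500 bp) and from the 3′ end (line) of the gene span. Midpoints are most frequent, at 645, between 100 and 150 bp from the 5′ end and summits, at 235, in the first 50 bp, while no 3′ bin within 500 bp holds more than 131 midpoints.

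Peak edges followed a grid. The first base of the peak lay within 1 bp of the annotated 5′ end in 152 cases, within 1 bp of position 50 in 377 and within 1 bp of position 100 in 161. In all, 923 first bases (35.9%, interval 34.1 to 37.8) lay within 1 bp of a multiple of 50 bp from the gene's 5′ end, where an even spread would give 6%. Lengths showed the same steps: 2305 peaks (89.7%) were within 1 bp of a multiple of 50 bp. The edges of these peaks are therefore resolved mostly to steps of about 50 bp. No peak can be read as a single modified base.

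**Figure D2:**
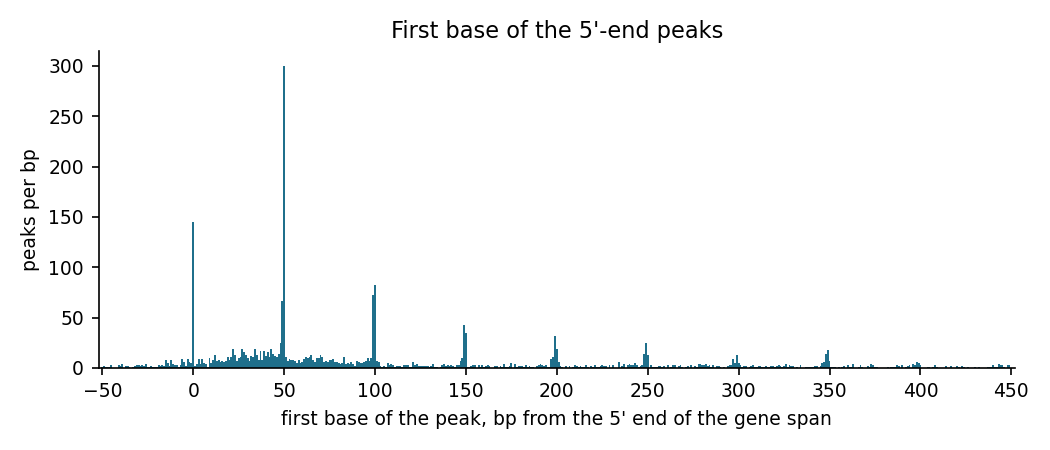
Number of 5′-end peaks (vertical axis) by the distance of their first base from the gene's 5′ end in bp (horizontal axis). The counts stand up at steps of 50 bp, the highest being 300 peaks that begin at exactly 50 bp.

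The folds at 5′ ends were larger than elsewhere in the same list. Their median was 5.50 (quartiles 3.50 and 9.50, range 1.10 to 68.0), beside 4.24 for all 18431 peaks, 4.00 for interior peaks and 3.75 at 3′ ends. A fold of 10 or more was deposited for 588 of the 2569 peaks, 22.9% (interval 21.3 to 24.6), against a background of 12.7% of all peaks. The share was 10.8% among interior and 9.98% among 3′-end peaks. Read the other way, 5′-end peaks made up 25.1% of all peaks with a fold of 10 or more, 30.8% of those at 20 or more (140 of 454) and 38.5% of those at 40 or more (20 of 52). The medians fell with distance outside the limit: interior peaks 500 to 999 bp from the 5′ end had a median of 5.10, those at 1000 to 1999 bp 4.30, those at 2000 to 9999 bp 4.10 and those at 10000 bp or more 3.8. Within the 500 bp the medians were close together, 5.00 in the first 100 bp, 5.83 and 6.0 in the next bins of that width, and 5.40 and 5.50 in the last 2. The change along the gene was gradual and the 500 bp limit marked no step.

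**Figure D3:**
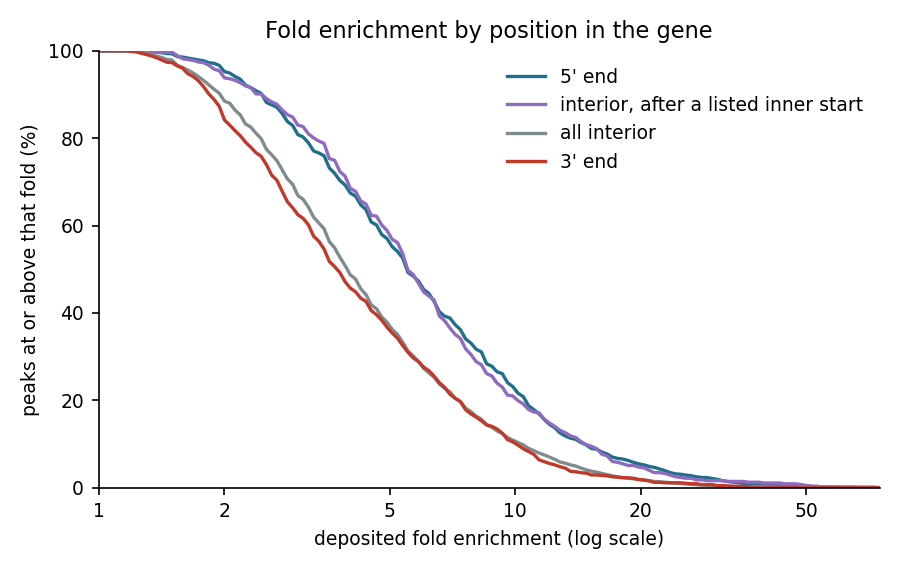
Share of peaks at or above each deposited fold (vertical axis, %) against that fold, precipitate over input (horizontal axis, log scale), for 5′-end peaks, interior peaks after a listed inner start of their gene, all interior peaks and 3′-end peaks. The curves of 5′-end peaks and of those after an inner start run together, both with a median of 5.50, to the right of all interior (4.00) and 3′-end peaks (3.75).

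A part of the fold values moved with position in another way. Among 5′-end peaks with a fold under 10, 985 of 1981 (49.7%) were a multiple of 0.25 within 0.005, compared with 35.2% of interior, 27.0% of 3′-end and 38.0% of all such peaks; an even spread would give 4%. Read depth under the peaks is unknown. Over the 1277 5′-end peaks whose fold, of any size, was no such multiple, the median was 5.10, beside 3.72 inside genes. The part of these coarse values in the difference was not tested further. In bulk RNA, a peak's presence also depends on how much of the transcript the cells hold, which the lists do not give.

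The 15 largest folds at 5′ ends ran from 45.0 to 68.0. TRNP1, a nuclear regulator of progenitor proliferation, stood first with 68.0 (chr1:26993791-26994285, FDR 0.00282). SMAD3, the receptor-activated transducer of TGF-beta signalling, followed with 66.0 (chr15:67065969-67066118, FDR 0.000166). The SMAD3 midpoint lay 441 bp into the gene and the TRNP1 midpoint 346 bp, so neither stood at the very start of the transcript. Among the others, ADCY3, an adenylyl cyclase, had 60.5, HABP4, a hyaluronan- and RNA-binding protein, 55.5, and SRSF9, a serine- and arginine-rich splicing factor, 54.2. AGAP1, a GTPase-activating protein for ARF, had 52.0, VEGFC, a lymphatic growth factor, 50.2, and KIF5B, a kinesin heavy chain, 47.9 with the lowest FDR of the 15, 3.16e-07. SLC52A2, a riboflavin transporter, had 47.0, TMEM131 46.8, CNNM4, a magnesium transporter, 46.5, and SOX18, a transcription factor of vessel development, 45.0. EEIG1, shown above, also belonged to the 15. The remaining 2 were the pseudogenes TPI1P1 (64.2) and EIF4HP1 (46), each a copy of a coding gene, and reads of near-identical copies may have been placed on the wrong one. Midpoints of the 15 lay between 125 and 494 bp, 9 of them at 300 bp or more.

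The lowest FDRs belonged to other genes, 3 of them with folds under 3. ITM2B, a membrane protein that limits amyloid production, had an FDR of 5.01e-31 at a fold of 2.38. RNASEH2A, the catalytic subunit of ribonuclease H2, had 2.51e-22 at 2.75 (its other 5′-end peak had a fold of 2.83), and SUMO2, a small protein modifier, 6.31e-19 at 2.94. EP300-AS1, a noncoding RNA, followed with 6.31e-14 at 9.50, and SLC39A3, a zinc transporter, with 1e-13 at 31.3. The extremes of fold and of FDR thus shared no gene. Each name follows the gene span around the midpoint, and the gene ID in the deposited list can differ. At the near edge, the midpoint lay 1 bp from the 5′ end for SMAD2, the partner of SMAD3 (fold 4.50), and 3 bp for STIM2, a calcium sensor (5.88). NDC1, a nuclear pore protein, lay at 7 bp (6.43), while FAM83H (12) and PPFIBP1 (3.50) both lay at 9 bp. Just inside the 500 bp limit, C2CD2 (17.5), RILPL1 (10.6) and GOLIM4 (5.86) had midpoints at 499 bp. Just outside it, MTX1 (12.2), CNKSR3 (6.75) and PARD3B (5.50) lay at 500 bp, so peaks on both sides of the limit had folds of similar size.

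Most genes had a single peak at the 5′ end: 2221 of 2390, with 160 genes holding 2 and 9 holding 3 or more. Some of these shared sequence, since 196 of the 2569 peaks overlapped another MeTDiff peak. RAB24, a small GTPase, had 3 with folds of 34.0, 17.5 and 16.6, and PTPMT1, a mitochondrial phosphatase, had 3 with 10.5, 8.50 and 2.45. MYBL1, a MYB-family transcription factor, had 4, from 2.50 to 3.94. Genes are named here by the span around the midpoint. In the deposited list, the RAB24 peak of 16.6 carried another Ensembl gene ID than the other RAB24 peaks. The same held for the PTPMT1 peak of 10.5. Over all 2569 peaks the list gave 2429 such IDs, against 2390 genes by position. For 1142 genes (47.8%) the 5′ end was the only place with a peak. The other 1248 also had peaks elsewhere, 236 of them at the 3′ end.

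Comparison within a gene sets peaks of the same RNA side by side unless isoforms differ, so the transcript level is shared. Read depth along the transcript is unknown and may differ between peaks of the same gene. Among the 1248 genes with peaks in both places, the strongest peak lay at the 5′ end in 718, 57.5% (interval 54.8 to 60.2), and 6 were ties. The 5′-end peaks were on average 37.1% of these genes' peaks. With exactly 1 peak at the 5′ end and 1 elsewhere, the 5′ peak had the larger fold in 357 of 505 genes (70.7%, interval 66.6 to 74.5), with medians of 5.50 against 3.50. The mirror count at the 3′ end gave 216 of 724 genes (29.8%, interval 26.6 to 33.3), where 3′-end peaks were on average 33.4% of the peaks. With 1 peak at the 3′ end and 1 elsewhere, the 3′ peak had the larger fold in 95 of 214 genes (44.4%, interval 37.9 to 51.1). The 5′ ends held the strongest peak in a larger share of genes than their share of the peaks, which the 3′ ends did not. Among folds under 10, multiples of 0.25 made up 49.7% at all 5′ ends and 27.9% of the other peaks of the 1248 genes. Without multiples of 0.25, the strongest peak lay at the 5′ end in 57.3% of 572 genes. The part of read depth in the within-gene difference was not tested.

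**Figure D4:**
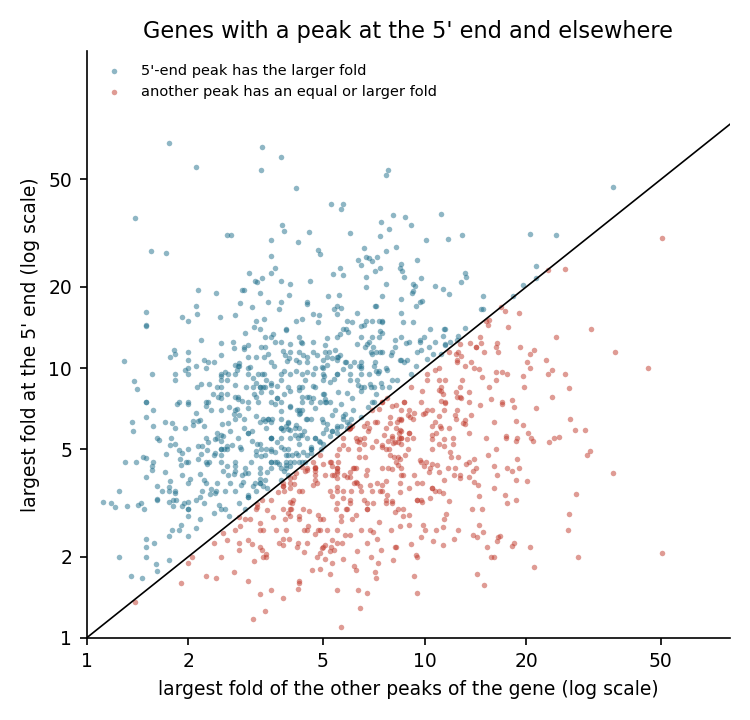
Deposited fold of the strongest 5′-end peak (vertical axis, log scale) against that of the strongest other peak of the same gene (horizontal axis, log scale), 1 point per gene, 1248 genes. Blue points above the diagonal are the 718 genes whose strongest peak is at the 5′ end, and points lie far from it on both sides.

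The gap was wide in some genes and ran the other way in others. TRNP1 had 68.0 at its 5′ end and 1.75 at its strongest other peak, HABP4 55.5 and 2.10, and SRSF9 54.2 and 3.27. SMAD3, with other peaks besides, had 66.0 against at most 3.30. AFDN, which links nectins to actin at cell junctions, had 36.0 and 1.39, and PDXP, a pyridoxal phosphatase, 27.2 and 1.55. In the opposite direction, EHBP1L1, an adaptor in membrane trafficking, had 2.06 at the 5′ end and 50.4 elsewhere. PPP4R3A, a regulatory subunit of protein phosphatase 4, had 2.00 and 28.5, GALK1, the galactokinase, 2.50 and 26.6, and KREMEN2, a receptor for the WNT inhibitor DKK1, 1.83 and 21.1. The 5′-end fold was at least 2 times that of any other peak in 364 of the 1248 genes, and the strongest other peak was at least 2 times larger in 230.

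Peaks in several blocks, separated by gaps along the genome, were less frequent at 5′ ends than inside genes and more frequent than at 3′ ends. They made up 649 of 2569 peaks, 25.3% (interval 23.6 to 27.0), beside a background of 33.1% of all peaks, 38.9% of interior peaks and 10.6% of 3′-end peaks. The share rose with distance, from 22.1% in the first 100 bp to 29.1% at 300 to 399 bp. Of the 649, 591 had 2 blocks, 50 had 3, 6 had 4 and 2 had 5. Folds did not follow block number in the 2 large classes, whose medians were both 5.50. The first block had a median of 110 bp and held 72.4% of the peak's length, and the midpoint lay in it for 537 of 649. The share of 5′-end peaks with several blocks depends on how the midpoint is defined: it was 14.5% with the centre of the genomic span in place of the middle base of the blocks. Distance was counted along the genome with introns included, so a peak whose middle base lies past a long first intron counts as interior. The rule itself thus lowers the share at 5′ ends and favours midpoints in the first block. How much of the difference this makes was not tested.

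The gaps between blocks had a median of 715 bp (quartiles 181 and 3743), against 609 bp (188 and 1973) for interior peaks, and 96 of 717 were longer than 10000 bp. The longest, 186222 bp, belonged to FMNL2, a formin that elongates actin filaments, whose peak spans chr2:152335174-152521944 in 2 blocks with 549 bp of transcript and a fold of 11.3. SLC9A7, a sodium-proton exchanger, had a gap of 76169 bp (fold 3.17), INPP4A, a phosphoinositide phosphatase, 73878 bp (9.50), and RBFOX2, a splicing regulator, 66573 bp (13.5). The most blocks, 5 each, were in ITGB1, the beta-1 integrin chain (11.7), and MXD4, a partner of MAX (7.08). REXO2, an oligoribonuclease, and TIMM50, a subunit of the mitochondrial import machinery, had 4 blocks and a fold of 20.5 each. Exon models were not used here, so the junctions under these gaps are not named. Whether each gap, the shortest being 2 bp, is an intron was not checked.

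A smaller group began before the RefSeq gene. The first base lay upstream of the 5′ end in 187 peaks (7.28%), 117 of them in 1 block. In 10 peaks, all of several blocks, it lay more than 1000 bp upstream. OSTM1, a lysosomal chloride-channel partner, began 47607 bp before its listed gene (fold 22.0), TBC1D8, a Rab GTPase-activating protein, 36453 bp (3.08), and HIRA, a histone H3.3 chaperone, 15667 bp (5.50). For such peaks the 5′ end is that of the RefSeq gene, and the caller's own gene models were not used here.

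The second deposited list was made with MACS2, a caller of read pile-ups along the genome that ignores splicing. It gives 6264 summits, single bases without strand, each with a −log10 p- or q-value as its score. A summit lay inside the blocks of 546 of 2569 5′-end peaks, 21.3% (interval 19.7 to 22.9), against a background of 12.4% of all MeTDiff peaks, 10.7% of interior and 10.8% of 3′-end peaks. Within 100 bp of a block the share was 45.6%, beside 27.3% of all peaks. The share varied with distance, from 11.1% in the first 100 bp to 31.0% at 200 to 299 bp and 21.6% at 400 to 499 bp. Peaks with a summit had a median fold of 9.0 and a median length of 250 bp. Those without had 4.88 and 146 bp. Longer blocks offer a summit more room, and among peaks within 5 bp of 150 bp in length the share was 9.09% at 5′ ends and 4.87% inside genes.

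Some 5′ ends had high values from both callers. MOGS, the glucosidase that begins N-glycan trimming, held the highest summit score, 111, with a fold of 20.1. SLC52A2 followed with 105 (47.0) and RNASET2 with 98.8 (35.8). TSR3, a ribosomal RNA modifying enzyme, had 84.2 (27.1, in 3 blocks), and EID2, an inhibitor of EP300, had 83.4 (19.5). Of the 15 peaks of largest fold, 9 held a summit, with scores of 21.4 for TRNP1, 34.9 for SMAD3 and 44.0 for EEIG1. The median score over all 5′-end peaks with a summit was 21.7, so the TRNP1 score was not a high one. AGAP1 (55.6), CNNM4 (47.4) and HABP4 (45.7) were among the 9 as well.

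The summits themselves were placed by the same rule over the genes of known strand. Of 4143 placed summits, 956 (23.1%) lay at a 5′ end and 165 (3.98%) at a 3′ end. Their distance from the 5′ end had a median of 120 bp (quartiles 50 and 260), with 235 summits in the first 50 bp and 37 in the last. The MACS2 summits thus stood nearer to the gene start than the MeTDiff midpoints. Of the 956, 435 (45.5%, interval 42.4 to 48.7) lay in any MeTDiff peak, against 34.3% of interior and 33.3% of 3′-end summits. The other 521 lay in none, although 334 of them were in a gene with a 5′-end peak.

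Within a peak, the summit sat toward the gene start. Over the 425 peaks of 1 block that held a summit, it lay upstream of the midpoint in 389 (91.5%, interval 88.5 to 93.8), with a median offset of -74 bp and quartiles of -107 and -46. This was so on both strands, in 190 of 211 peaks on plus and 199 of 214 on minus. The median summit stood 47 bp after the first base of the peak, and 43 of 425 (10.1%) were within 25 bp of the midpoint. The offset was not restricted to gene starts: interior peaks showed it in 710 of 817 cases (86.9%, interval 84.4 to 89.0) and 3′-end peaks in 68 of 80 (85.0%). How reads were extended before the pile-up is not stated, and the part of that step in the offset was not tested.

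Genes can have several promoters, so some interior peaks lie just after another start. RefSeq listed another start of the same gene less than 500 bp upstream for 547 of 9581 interior peaks of known strand (5.71%), on 502 genes. Their median fold was 5.50 (quartiles 3.68 and 9.0), 21% reached a fold of 10 and 19% (interval 15.9 to 22.5) held a summit. The 5′-end peaks of known strand had 5.50, 22.3% and 20.6%, and the 9034 other interior peaks 3.86, 10.2% and 10.0% (interval 9.44 to 10.7). By these values, peaks after listed inner starts resembled those at the outer 5′ end more than other interior peaks. The largest fold of the list, 73.9, was of this kind: it lay in HDGF, a hepatoma-derived growth factor, 131 bp after a listed start and 15822 bp from the gene's outer 5′ end. FAT1, a protocadherin, had 53.9 at 130 bp after such a start, and SEMA4B, a semaphorin, 50.4 at 142 bp. INPPL1, an inositol phosphatase, had 48.0 at 198 bp, and PICALM, a clathrin adaptor, 43.3 at 225 bp. The list of 5′-end peaks is therefore a lower count of peaks near transcript starts.

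Promoter sequence was listed for 1894 of the 2305 protein-coding genes with a 5′-end peak, as 250 bases before and 50 after the RefSeq start. The first 50 transcribed bases held a median of 40% G (quartiles 34 and 46), beside 36% in 3409 genes that had peaks elsewhere only and 34% in all 15842 coding genes with a listed promoter. C stood at 30% in all 3 groups. The 250 upstream bases had a median GC share of 67.6%, against 66.0% and 62.0%, and the 300 bases held 30, 27 and 22 CpG. So the leaders held more G than those of either other group, while most of the gap to all genes in upstream GC and in CpG was shared by genes with peaks elsewhere. The listed start lay at the edge of the gene span for 1810 of 1894, 2818 of 3409 and 13819 of 15842 genes. The 3 groups were thus not taken at fully like positions.

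Over 4 groups of rising G share in those 50 bases, the median fold went from 5.03 (G of 8 to 34%, 626 peaks) through 5.50 and 5.50 to 6.0 (48 to 66%, 411 peaks), and the share with a summit from 18.5% to 23.8%. Motifs were searched as exact letters on both strands in the 300 bases. GGGCGG, the core of an SP1 site, was in 80.4% of promoters of genes with a 5′-end peak, 72.7% of those with other peaks only and 58.3% of all. The TATA box, TATAAA, was in 4.22%, 4.61% and 9.75%. The CCAAT box was in 37.0%, 36.3% and 36.4%, and CACGTG, the E-box, in 11.5%, 10.4% and 8.82%. TGACTCA, the AP-1 site, was in 1.74%, 2.90% and 3.62%. A match is a run of letters and not evidence of binding.

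By function, the genes with a 5′-end peak were counted against 11.5% of the 20052 protein-coding genes in the table, of which 32.0% had any placed peak. Because a silent gene cannot have a peak, the share among genes with any placed peak is given too, which was 36.0% (interval 34.8 to 37.1) over all coding genes. Of 50 genes of the RAS, MAPK and PI3K pathway, which carries growth factor signals from the cell surface, 34 had a peak and 19 had one at the 5′ end (38.0% of 50, interval 25.9 to 51.8; 55.9% of 34). The adaptor GRB2 had a fold of 23.4, the phosphatase PTPN11 20.9 and 4.56, and the kinase MAPK3 19 and 2.80. GRB2 and PTPN11 act next to the receptor and MAPK3 is the last kinase of the cascade.

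**Figure D5:**
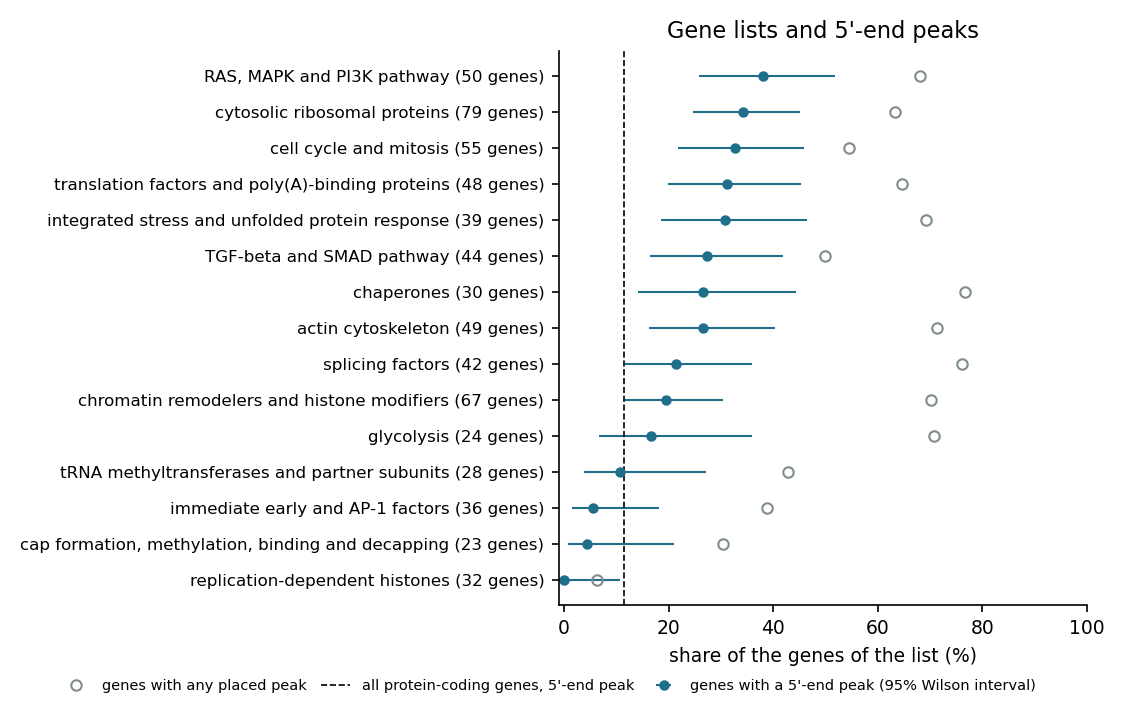
Share of the genes of each list (horizontal axis, %) with a 5′-end peak (filled points, with 95% Wilson intervals) and with any placed peak (open circles), for 15 gene lists; the dashed line is the 11.5% of all protein-coding genes. The RAS, MAPK and PI3K list stands highest at 38.0%, and replication-dependent histones at 0, where the rule leaves short genes little room.

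The TGF-beta and SMAD pathway controls growth arrest and invasion in epithelial cells. Among 44 of its genes, 22 had a peak and 12 had one at the 5′ end. That was 27.3% of 44 (interval 16.3 to 41.8) and 54.5% of the 22. The interval of the latter, 34.7 to 73.1, includes the 36.0% of all coding genes. Beside SMAD3 at 66.0, the latent TGF-beta binding protein LTBP2 had 14.2 and 5.62, the ubiquitin ligase SMURF1 10.7 and the receptor BMPR2 10.4. The cell cycle list gave 18 of 55 genes (32.7%, and 18 of the 30 with a peak). CDC25A, the phosphatase that activates cyclin-dependent kinases, had 25.5, the proliferation antigen MKI67 10.8, the transcription factor MYBL2 10.5 and the helicase subunit MCM3 9.50.

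Cytosolic ribosomal protein genes, whose transcripts begin with a pyrimidine tract and have short leaders, had a 5′-end peak in 27 of 79 (34.2%, interval 24.7 to 45.2; 54.0% of the 50 with a peak). The folds were mostly low, with a median under the 5.50 of all 5′-end peaks, but RPS20 and RPL22 had 23.0 each, RPL30 17.7 and RPS9 15.2. Ribosomal protein genes have many processed copies in the genome, so reads may be split among them. Translation factors gave 15 of 48 (31.2%, interval 19.9 to 45.3; 48.4% of the 31 with a peak) with a median of 3.48. The poly(A)-binding protein PABPC4 had 10.0, the initiation factor subunit EIF2S2 6.50, EIF1, which guards start codon choice, 6.0, and the cap-binding inhibitor EIF4EBP2 4.75.

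The list for the integrated stress response and the unfolded protein response had 12 of 39 (30.8%; 44.4% of the 27 with a peak). The amino acid transporter SLC7A5 had 12.9 with a summit score of 77.6, the transcription factor CEBPG 10.4, the haem-regulated kinase EIF2AK1 9.97 and EDEM1, which directs misfolded glycoproteins to degradation, 5.90. Chaperones had 8 of 30 (26.7%; 34.8% of the 23 with a peak, near the 36.0% of all coding genes), among them DNAJB11 at 23.3, the disulphide isomerases P4HB at 15 and PDIA4 at 11.2, and the heat shock factor HSF1 at 10.5. Genes of the actin cytoskeleton had 13 of 49 (26.5%; 37.1% of the 35 with a peak, also near it), with the myosin light chains MYL12A at 12.3 and MYL6 at 7.83 and 5.25, profilin PFN1 at 9.15 and the myosin heavy chain MYH9 at 8.83.

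Splicing factors had 9 of 42 (21.4%; 28.1% of the 32 with a peak). After SRSF9 at 54.2 came PRPF8, the core of the spliceosome, at 11.2, HNRNPU at 11.2 and TRA2B at 7.75. Chromatin remodelers and histone modifiers had 13 of 67 (19.4%; 27.7% of the 47 with a peak), and a median of 8.50. The deacetylase SIRT1 had 20.8, the demethylases KDM1A and KDM2A 18.9 and 17.5, and the methyltransferase KMT2A 17.5. Glycolysis had 4 of 24 (16.7%; 23.5% of the 17 with a peak): GAPDH at 10.6, LDHB at 7.5, PFKL at 7.0 and TPI1 at 4.39.

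The smallest shares of all genes of a list were in the remaining 4 lists. Of 28 tRNA methyltransferases and partner subunits, TRMT5's own family by function, 12 had a peak and 3 had one at the 5′ end (10.7%, interval 3.7 to 27.2): the uridine methyltransferases TRMT44 at 7.5 and TRMT2B at 5.86, and the cytosine methyltransferase NSUN2 at 2.82. Immediate early and AP-1 factors had 2 of 36 (5.56%; 14.3% of the 14 with a peak), SRF at 26.5 and JUND at 7.0. Of 23 genes that form, methylate, bind or remove the cap, RNGTT, the capping enzyme, was the only one, at 4.00 (4.35%, interval 0.77 to 21). Only 7 of the 23 had any placed peak, so the share among those was 14.3% (interval 2.57 to 51.3). Replication-dependent histone genes, whose transcripts mostly lack a poly(A) tail and are short, had 0 of 32. The rule also asks for 500 bp or more to the 3′ end, which leaves a short gene little room for a 5′-end peak. The count of 0 allows a share of up to 9.38% by the limit of 3 counts, and the Wilson interval reaches 10.7%. Neither bound takes account of that rule. Only 2 of the 32 had any placed peak, too few to say where histone peaks lie.

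The 2 genes in the title of the series had no 5′-end peak by the midpoint rule. In NES, the gene of nestin, an intermediate filament of progenitor cells, the nearest midpoint lay 622 bp from the 5′ end, with a fold of 18.2. That peak had 3 blocks over chr1:156673484-156677258 and held 2 summits. Gaps between blocks count in the distance, and its first base lay nearer to the gene start than its midpoint. In TRMT5 the nearest midpoint lay at 2371 bp, with a fold of 1.75. For the label of the cells, 6 of 10 ductal and epithelial markers had any placed peak (KRT8, KRT18, KRT19, EPCAM, SOX9 and MUC1). SOX9, a ductal transcription factor, was the one with peaks at the 5′ end, of 3.29 and 2.19. Among markers of other cells, any placed peak was found for 1 of 9 acinar genes (CEL), 0 of 8 endocrine, 2 of 8 stellate and fibroblast (COL1A1 and COL3A1), 0 of 5 endothelial and 1 of 6 leukocyte genes (CD68, with a 5′-end peak of 5.17). A gene without a peak may still be expressed, so these counts say little on identity.

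Noncoding genes were few. Protein-coding genes held 2479 of the 2569 peaks, lncRNA genes 62 and pseudogenes 28. The lncRNA peaks had a median fold of 4.83 and 8 of 62 (12.9%) held a summit. CHASERR, a noncoding regulator of the neighbouring CHD2, had 23.7, TWSG1-DT 22.5, LINC01117 15 and LINC00667 14.8. The pseudogene peaks had a median of 7.5, led by the copies named above and by DPY19L2P2 at 17.0, and their assignment is uncertain for the same reason.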

How the data were processed

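The series has 6 libraries (control and TRMT5-depleted PANC-1 cells, 1 input and 2 anti-m1G precipitates each). Its 2 deposited peak lists carry no library, condition or counts, so depth is unknown and no test between conditions was made. The authors' MACS2 list gives summits with a −log10 p-value or q-value as score, and which of these is not stated. The authors' MeTDiff list gives per peak a deposited p-value, a log10 FDR and a fold, the ratio of precipitate over input. Per the submitters' processing notes, tools included STAR 2.7.1, MACS2 2.2.5, SAMtools, Picard and bedtools, and the build was GRCh38. The sources used here do not give their order, settings or pooling. The highest deposited FDR was 0.0501.

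Midpoints were placed in RefSeq GRCh38.p14 gene spans of 59788 genes. A peak was named for the gene of that span, and the gene ID in the deposited list can differ. A midpoint lay in 1 span for 15649 peaks, in several for 2673 and in none for 109. Strand came from the RefSeq promoter table (27304 genes), 348 peaks on the other strand were left out, and genes without a listed strand were kept by the peak's strand. A summit counted as inside a peak when it lay within a block. Positions were computed with Python 3.11.15, pandas 2.3.3 and SciPy 1.17.1 and tested on simulated peaks. Named genes are the 15 largest folds, the 5 lowest FDRs, most blocks, nearest midpoints, most peaks and highest summit scores, up to 4 genes per list, the 3 nearest the limit on each side, TRMT5 and NES; 1 gene that the rule names is not reported here. Genes named for long gaps, upstream starts, inner starts, large gaps within a gene, or as noncoding RNA were chosen after their values were seen. The members, gene lists and comparisons were chosen with earlier results of these data known. Shares have 95% Wilson intervals. Alternatives changed the distance limit, spans, midpoint, strand, FDR, overlap, peaks per gene, biotype, summit rule, fold steps and peak length.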

Additional observations from a re-analysis of the deposited data

How the results depend on the processing

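The number of 5′-end peaks ran from 1816 to 3273 over 10 alternatives, always within 1.5 times 2569. The median fold ran from 5.00 to 5.75 over 12 and stayed above the interior median each time. It was 5.10 (interior 3.72) without folds that are multiples of 0.25 and 5.00 (interior 3.99) for peaks within 5 bp of 150 bp in length. With only the largest-fold peak of each gene kept in each class, the gap shrank to 5.75 against 5.50. That choice was among 11760 interior peaks on 5252 genes and 2569 5′-end peaks on 2390 genes, so it raised the interior median more. The share in several blocks was 14.5% (interior 40.7%) with the genomic centre as midpoint. The share with a summit was above the interior share in 14 of 14 alternatives; it was 19.5% under 250 bp, 45.6% within 100 bp of a block, 14.1% (interior 5.54%) for summits at or above the median score, 23.4% (interior 12%) without multiples of 0.25 and 9.09% (interior 4.87%) for peaks near 150 bp. The share of genes whose strongest peak is at the 5′ end stayed between 56.2% and 58.2%. Genes of known strand only (2082 peaks), folds that are no multiple of 0.25, and peaks near 150 bp were chosen after seeing the data; causes were not tested. No paired analysis was possible because the lists have no replicate columns, and no library could be left out. Depth under each peak is unknown, so small folds and missing summits cannot be told from low coverage.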
